A study of Danio rerio with 2 samples.

Results

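Subset 1 V0v interneurons were compared in an inhibitory and an excitatory state at 48 h in the zebrafish spinal cord. Subset 1 is one of the molecular groups of V0v interneurons and was recognised here by at least 1 UMI of anos1a, chrna2b, fndc4b, plpp4, cnih3 or drd2b. A UMI (unique molecular identifier) is the tag that marks 1 captured RNA molecule. The inhibitory side held cells with at least 1 UMI of hmx2, hmx3a or slc6a1b and none of slc17a6a, slc17a6b or evx2. The excitatory side held cells with at least 1 UMI of evx2, slc17a6a or slc17a6b and none of hmx2, hmx3a, slc6a1b or slc6a5. Cells with a UMI of en1b, gata3 or dmrt3a, factors of other spinal neurons, were left out of both sides. These rules selected 368 inhibitory and 590 excitatory cells, 958 of the 8127 cells that passed the quality limits and of the 10596 cells in the files. The members were thus chosen by their measured UMIs, and the 19 genes used to choose them or the cells of subset 2 are not results.

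The cells came from 2 droplet libraries of EGFP-positive trunk cells, sorted from embryos whose parents, carriers of Tg(evx1:EGFP)SU2, were both heterozygous for 2 mutant alleles, evx1 i232 and evx2 sa140. In this line evx1 regulatory sequences drive EGFP, so that V0v cells remain labelled whether or not they make Evx proteins. Wild-type, heterozygous and mutant embryos were pooled in each library and no cell has a genotype label, so the sides are cell states and not genotypes. The library labels name a set of GFP cells (library 1, OtherGFP, and library 2, AllGFP) whose difference they do not explain. Nothing says whether the libraries came from separate clutches. The p-values measure only how the differences between the summed groups of cells varied across these 2 libraries, after a term for the library.

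V0v interneurons arise from progenitors that express dbx genes, and they express the homeobox factors Evx1 and Evx2. They are normally glutamatergic, that is, they load glutamate into vesicles with transporters of the Slc17a6 family. Inhibitory spinal neurons instead make GABA with glutamate decarboxylases or take up glycine with Slc6a5, and fill vesicles with either transmitter through Slc32a1. The comparison asks which other genes accompany each side within 1 subset of V0v neurons. A cell could enter a side through hmx2, hmx3a or evx2 alone, so the sides are not defined by transmitter genes only.

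Library 1 gave 195 inhibitory and 328 excitatory cells, and library 2 gave 173 and 262. The median depth per cell was 3819 UMIs in library 1 and 4224 in library 2 on the inhibitory side, and 4011.5 and 4672.5 on the excitatory side. Summed over cells, the inhibitory side held 746528 and 724058 UMIs and the excitatory side 1353968 and 1187759. All 9 neuron markers present in the files were detected on both sides in both libraries, with a summed level of 13151 to 15354 CPM. The 6 subset 1 markers set the rule, so their presence in each of the 4 sums only describes the members. For anos1a, which encodes the matrix protein anosmin, the level was 363 and 341 CPM on the inhibitory side and 253 and 279 CPM on the excitatory side. For chrna2b the order was the reverse, with 181 and 170 CPM on the inhibitory side and 270 and 328 CPM on the excitatory side. CPM, the level used throughout, is the count of a gene per 1000000 UMIs of its sum, and library 1 is given first.

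Most subset 1 cells held genes of 1 side only. Before the side rules there were 706 subset 1 cells in library 1 and 665 in library 2. Of these, 27.6% (exact binomial 95% interval 24.4 to 31.1%) and 26.02% (22.7 to 29.5%) were inhibitory, and 46.5% (42.7 to 50.2%) and 39.4% (35.7 to 43.2%) were excitatory. Cells with genes of both sides made up 11.5% (9.22 to 14.1%) and 11.4% (9.11 to 14.1%). Cells with genes of neither side made up 12.6% and 21.7%. A further 13 and 10 cells had excitatory genes together with slc6a5. The intervals cover counting error only. Membership often rested on little: 192 and 147 of the members had exactly 1 UMI of the 6 subset markers, while 1401 and 1292 sided cells had none and fell outside. On the inhibitory side 23 and 18 cells, and on the excitatory side 66 and 47, had exactly 1 UMI of the genes that set the side.

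The sides differed widely beyond the genes that defined them. The edgeR quasi-likelihood test on the UMI sums, with library as a term, called 962 of 9218 genes at a Benjamini-Hochberg adjusted p under 0.05, a background of 10.4%. On the inhibitory side 441 genes (4.78%) were higher and 521 (5.65%) lower, and 958 of the 962 had the same direction within both libraries. At least 4-fold changes were seen for 131 of the higher and 171 of the lower genes. The levels of the sides did not overlap between libraries for 928 of the 962 genes called and for 4041 of the 9218 tested. The median log2 fold change of all genes tested was -0.0035. The DESeq2 Wald test on the same sums called 503 genes, all of them among the 962, and edgeR without the library term called 465.

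Some GABA genes rose on the inhibitory side. gad1b, which encodes a GABA-synthesising decarboxylase, had 81 and 77 UMIs there (108 and 106 CPM) and 0 UMIs on the excitatory side in both libraries. Against a floor of 3 UMIs over both excitatory sums, gad1b was at least 91.0-fold higher (adjusted p = 5.55e-10), although the DESeq2 Wald test did not call it. A gad1b UMI was found in 23.6% and 24.3% of inhibitory cells, and in 0 of 328 and 0 of 262 excitatory cells, which allows a share of up to 0.915% and 1.15%. The excitatory rule itself left out cells with slc6a1b or slc6a5, and the part of this rule in the absence of gad1b was not tested. Among subset 1 cells with genes of both sides, 7.41% and 5.26% had a gad1b UMI after every cell was thinned to 2000 UMIs. gad2, the second decarboxylase gene, was at 20.1 and 40.1 CPM against 4.43 and 3.37 CPM, a log2 fold change of 2.84 ± 0.52 (SE; adjusted p = 3.20e-04). The change in gad2 was no longer called when cells with slc6a5 were left out of both sides. The third called gene was slc32a1, the shared GABA and glycine vesicle transporter.

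slc32a1 was found on both sides. Its level was 970 and 874 CPM on the inhibitory side and 349 and 345 CPM on the excitatory side, a log2 fold change of 1.39 ± 0.11 (adjusted p = 8.51e-10). The levels of the sides did not overlap, but a sizeable share of the excitatory cells had the transcript. After every cell was thinned to 2000 UMIs, 81.2% and 79.8% of inhibitory cells and 35.9% and 38.8% of excitatory cells had a slc32a1 UMI. Without thinning the shares were 91.8% and 88.4% against 48.8% and 46.9%. Among fibroblast-like cells, which should lack the gene, the thinned share was 0% and 0.285%, at unthinned median depths of 5047.5 and 5467 UMIs. The share of excitatory cells was above that of fibroblast-like cells, of which only 64 were counted in library 1. The part of free RNA was not tested.

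Of the 9 GABA and glycine genes tested besides slc6a5 and slc6a1b, 3 rose, none fell and 6 were not called. Over all genes tested, 4.78% rose and 5.65% fell. The median log2 fold change of the 9 genes was 0.75. The 6 were gad1a, the GABA transporter gene slc6a1a, the glycine transporter gene slc6a9, abat, which encodes the enzyme that breaks down GABA, and gphna and gphnb, which encode the receptor scaffold gephyrin. gphnb, for example, was at 139 and 163 CPM on the inhibitory side and 133 and 131 CPM on the excitatory side. gad1a was sparse, with 8 and 5 UMIs against 3 and 2.

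A peptide gene was also far higher on the inhibitory side. pnoca, which encodes the precursor of the opioid-related peptide nociceptin, was at 2348 and 1747 CPM on the inhibitory side and 22.2 and 8.42 CPM on the excitatory side. The log2 fold change was 7.03 ± 0.19 (adjusted p = 2.97e-19). After thinning, 68.3% (61.1 to 74.9%) and 55.4% (47.5 to 63.0%) of inhibitory cells had a pnoca UMI, against 1.86% and 1.16% of excitatory cells and 1.56% and 0% of fibroblast-like cells. The excitatory share was thus no higher than the background in library 1. The 0 of 702 fibroblast-like cells in library 2 allows a share of up to 0.427%. The excitatory share there, from 3 of 258 cells, lay above this limit, with an interval of 0.240 to 3.36%.

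**Figure D1:**
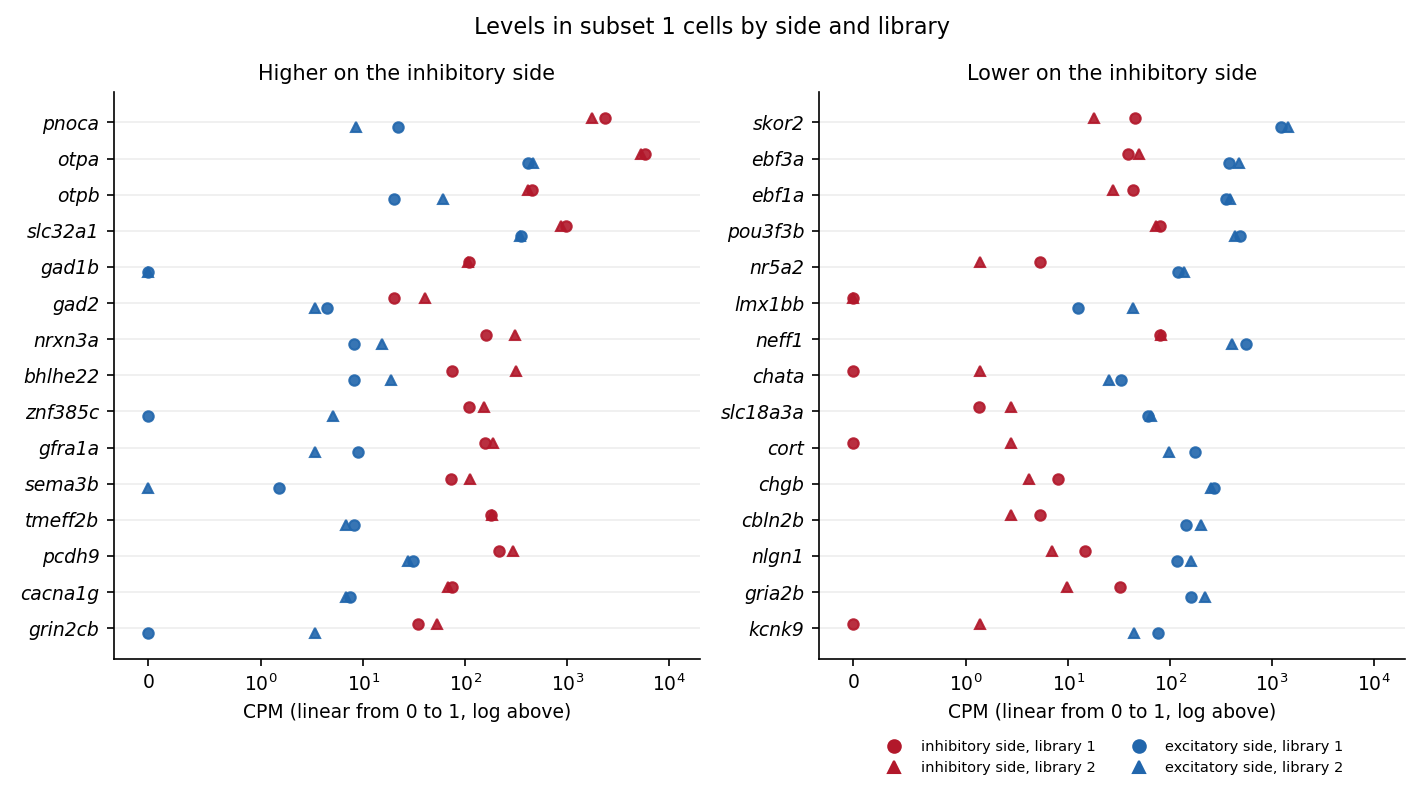
Level of 30 genes in CPM (linear from 0 to 1, log above) in the 4 sums of subset 1, with the inhibitory side in red and the excitatory side in blue, library 1 as circles and library 2 as triangles. For each gene shown both libraries of 1 side lie above both of the other, as for pnoca (2348 and 1747 CPM against 22.2 and 8.42 CPM). The same held for 4041 of the 9218 genes tested.

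The cholinergic genes chata and slc18a3a were found almost wholly on the excitatory side. chata, which encodes choline acetyltransferase, was at 33.2 and 25.3 CPM on the excitatory side and at 0 and 1.38 CPM on the inhibitory side. slc18a3a, the vesicular acetylcholine transporter gene, was at 60.6 and 65.7 CPM against 1.34 and 2.76 CPM, a log2 fold change of -4.92 ± 0.46 (adjusted p = 1.25e-08). All 3 tested cholinergic genes fell on the inhibitory side, against 5.65% of all genes. The third, ache, encodes the enzyme that degrades acetylcholine and fell by only 0.75 on the log2 scale. A UMI of chata or slc18a3a was found in 22.9% (18.4 to 27.8%) and 17.9% (13.5 to 23.1%) of excitatory cells, and in 1 of 195 and 2 of 173 inhibitory cells. Both genes together were found in 10 and 14 excitatory cells.

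Both genes also stood on the list of motoneuron markers, whose summed level was 97.5 and 125 CPM on the excitatory side and 2.68 and 24.9 CPM on the inhibitory side. Of the other markers on the list, mnx2a had no UMI in any of the 4 sums, mnx1 had none in library 1 and 1 inhibitory and 2 excitatory UMIs in library 2, and isl1a, the most abundant, had 13 inhibitory and 18 excitatory UMIs in library 2. When cells with a chata or slc18a3a UMI were left out, an alternative chosen after seeing the data, 891 genes were called, 809 of them among the original 962.

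Peptide and secretory genes split between the sides. cort, which encodes the somatostatin relative cortistatin, was at 177 and 97.7 CPM on the excitatory side and 0 and 2.76 CPM on the inhibitory side; DESeq2 did not call it. uts2d, a gene of the urotensin 2 family, had 29 and 64 UMIs in excitatory and 0 and 1 in inhibitory cells. chgb, which encodes the secretory granule protein chromogranin B, was at 270 and 254 CPM against 8.04 and 4.14 CPM, a log2 fold change of -5.43 ± 0.30 (adjusted p = 6.86e-13). adcyap1b, the gene of the peptide PACAP, fell by 2.94 on the log2 scale. Of the 6 listed neuropeptide genes tested, 3 rose (pnoca, penkb and scg2a), 2 fell (adcyap1b and scg2b) and tac3a was not called. Over all genes tested, 4.78% rose and 5.65% fell. The genes cort and uts2d, which fell, were not on this list. The rise of penkb, a proenkephalin gene, rested on 1 inhibitory cell of library 1 with 19 UMIs and 2 of library 2 with 127 UMIs.

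The V0v candidate genes that the study had selected did not move as 1 group. Of the 10 tested, 6 were lower on the inhibitory side, 2 higher and 2 not called, against 5.65% and 4.78% of all genes. The median log2 fold change of the 10 candidates was -1.79. The study examined these genes in the same cells, so their direction is not independent evidence. skor2 (LL0000038729 in the files), which encodes a transcriptional co-repressor, changed most. It was at 45.5 and 18.0 CPM on the inhibitory side and 1236 and 1443 CPM on the excitatory side, a log2 fold change of -5.42 ± 0.26 (adjusted p = 4.83e-14). After thinning, 70.9% (65.6 to 75.8%) and 68.2% (62.2 to 73.9%) of excitatory cells had a skor2 UMI, against 2.15% and 1.19% of inhibitory cells.

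Among the other candidates, the early B-cell factor gene ebf3a was at 38.8 and 49.7 CPM against 375 and 477 CPM (log2 fold change -3.28 ± 0.19, adjusted p = 1.33e-12). After thinning, an ebf3a UMI was found in 38.7% and 41.1% of excitatory, 5.38% and 6.55% of inhibitory and 17.2% and 32.2% of fibroblast-like cells, which also hold the gene. The neuronal intermediate filament gene neff1 (LL0000039194) was at 79.0 and 81.5 CPM against 560 and 402 CPM. The change of neff1 was -2.60 ± 0.20 on the log2 scale (adjusted p = 5.53e-10), and was not called by DESeq2. inab, which encodes an internexin, fell by 0.90 and skor1b by 2.97 on the log2 scale, the latter from 5 inhibitory and 72 excitatory UMIs. In contrast nefma, a neurofilament gene, rose, with 336 and 302 CPM on the inhibitory side and 138 and 120 CPM on the excitatory side (log2 fold change 1.29 ± 0.15, adjusted p = 3.82e-07). The homeobox genes uncx and uncx4.1 moved in opposite directions: uncx was at 368 and 236 CPM against 223 and 212 CPM (0.44 ± 0.14), and uncx4.1 at 12.1 and 11.05 CPM against 15.5 and 42.1 CPM (-1.29 ± 0.38). Both calls were lost under several alternatives. skor1a (-2.30 ± 0.83, adjusted p = 0.083) and nefmb (0.49 ± 0.20, adjusted p = 0.14) were not called.

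Of 17 further transcription factor genes listed by the study as lower in mutant V0v cells, 14 were lower on the inhibitory side. None of the 17 was higher and 3 were not called, against 5.65% lower and 4.78% higher of all genes. The median log2 fold change of the 17 was -1.62. The study chose this list on these libraries, so it is not independent evidence of a direction. The nuclear receptor gene nr5a2 was at 5.36 and 1.38 CPM against 119 and 137 CPM (log2 fold change -5.22 ± 0.35). ebf1a was at 42.9 and 27.6 CPM against 356 and 388 CPM (-3.41 ± 0.18, adjusted p = 3.71e-13). ebf1a was also common in fibroblast-like cells, 28.1% and 26.8% of which had a UMI after thinning, against 44.0% and 40.3% of excitatory and 5.38% and 4.17% of inhibitory cells.

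The class III POU factors fell together on this list. pou3f3b was at 79.0 and 73.2 CPM against 487 and 435 CPM (-2.62 ± 0.14, adjusted p = 6.86e-13), pou3f2b fell by 2.30 and pou3f1 by 2.28 on the log2 scale. Smaller decreases were seen for the large Maf gene mafba (100.5 and 66.3 CPM against 298 and 358 CPM), the Scratch repressor gene scrt2 (-1.30 ± 0.21), the zinc finger homeobox gene zfhx3b (LL0000038414; -1.04 ± 0.13) and the TALE homeobox gene pbx1b (-0.97 ± 0.15). pou2f2a (LL0000039884) was at 121 and 369 CPM on the inhibitory side and 352 and 543 CPM on the excitatory side. The sides of pou2f2a therefore overlapped between libraries, although within each library the inhibitory side was lower (adjusted p = 0.014). pou2f2b (LL0000040111) and luzp1 were among the genes not called.

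The study's list of factors that were higher in mutant cells, again chosen on these libraries, held hmx2 and hmx3a, which set the side here and were not tested. The 6 others on it were all higher on the inhibitory side, against 4.78% of all genes, with a median log2 fold change of 3.08. The zinc finger gene znf385c had 81 and 111 UMIs there and 0 and 6 on the excitatory side (108 and 153 CPM against 0 and 5.05 CPM). The homeobox gene otpb was at 454 and 410 CPM against 19.9 and 60.6 CPM (log2 fold change 3.47 ± 0.24, adjusted p = 3.84e-11). bhlhe22, which encodes a basic helix-loop-helix repressor, was at 73.7 and 318 CPM against 8.12 and 18.5 CPM. The levels of bhlhe22 on the inhibitory side differed more than 4-fold between the libraries, and both lay above the excitatory side. zmat4b rose by 2.69, znf385a by 2.26 and irx1a, an Iroquois homeobox gene, by 1.46 on the log2 scale.

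The paralogue otpa was the most abundant factor gene of the inhibitory side among those named. It was at 5859 and 5345 CPM on the inhibitory side and 411 and 459 CPM on the excitatory side (log2 fold change 3.66 ± 0.09, adjusted p = 5.60e-20). After thinning, 95.7% (91.7 to 98.1%) and 86.9% (80.8 to 91.6%) of inhibitory cells and 33.1% (28.0 to 38.6%) and 29.8% (24.3 to 35.8%) of excitatory cells had an otpa UMI. Among fibroblast-like cells the shares were 0% and 0.427%. otpa also belonged to the list of V1-like markers. Of the others on that list, en1a had 1 UMI on the excitatory side of library 1 and none elsewhere. foxd3 had 0 and 19 UMIs on the inhibitory and 9 and 6 on the excitatory side. foxp2 was also higher on the inhibitory side (log2 fold change 1.01 ± 0.32, edgeR adjusted p = 0.039), while pou2f2a was lower.

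**Figure D2:**
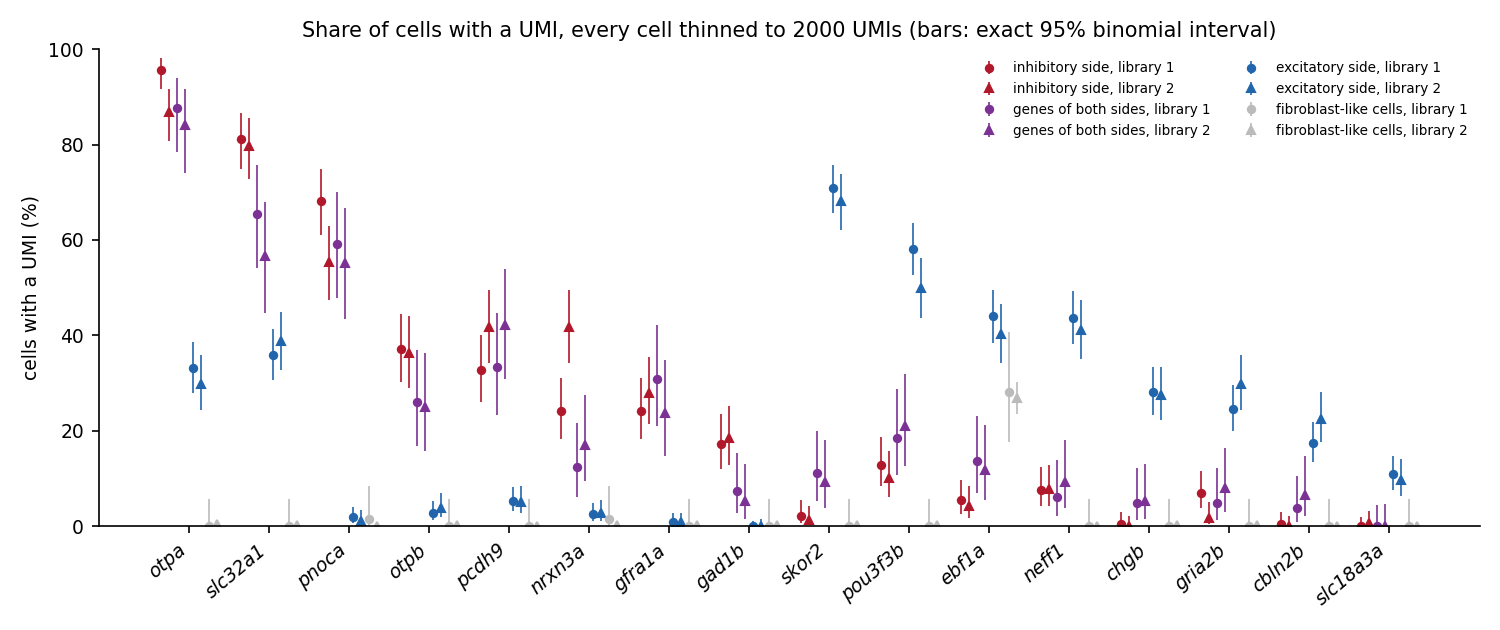
Share of cells with at least 1 UMI of 16 genes after every cell was thinned to 2000 UMIs, for the inhibitory side (red), cells with genes of both sides (purple), the excitatory side (blue) and fibroblast-like cells (grey), with exact binomial 95% intervals. otpa, slc32a1 and pnoca were frequent on the inhibitory side and in cells with genes of both sides, whereas skor2 was found in 70.9% and 68.2% of excitatory cells and in 2.15% and 1.19% of inhibitory cells.

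Of 8 tested identity factors of V0 and dorsal neurons, 4 rose, 1 fell and 3 were not called. Over all genes tested, 4.78% rose and 5.65% fell. The LIM homeobox gene lhx1a was at 1021 and 1498.5 CPM on the inhibitory side and 465 and 632 CPM on the excitatory side (log2 fold change 1.17 ± 0.09, adjusted p = 9.66e-10). lhx5 rose by 0.55, pax8 by 1.01 and pax2a, a paired box gene of many inhibitory spinal neurons, by 2.17 on the log2 scale. pax2a was at 26.8 and 95.3 CPM against 11.8 and 13.5 CPM. With cells holding slc6a5 left out of both sides, pax2a turned to -0.33 and pax8 was at 0.03, and neither was called. lmx1bb, a LIM homeobox gene, had no UMI on the inhibitory side and 17 and 51 UMIs on the excitatory side. It was at least 13.1-fold lower against a floor of 3 UMIs over both inhibitory sums. After thinning, however, a lmx1bb UMI was found in 0.619% and 3.10% of excitatory cells and in 6.25% and 3.42% of fibroblast-like cells, so the excitatory share was no higher than in cells of another type. Most of the lmx1bb UMIs came from the excitatory side of library 2, where fibroblast markers summed to 227 CPM, against 13.3 to 70.4 CPM in the other sums, and their part in this result was not tested.

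evx1, which was not part of the rule, was lower on the inhibitory side within both libraries, but the change was not called. In subset 2 it was called lower (log2 fold change -1.25 ± 0.22, edgeR adjusted p = 2.39e-04). The difference between the subsets, 0.71 ± 0.30, was not called (edgeR adjusted p = 0.147). In subset 1, evx1 was at 118 and 99.4 CPM on the inhibitory side and 150 and 162 CPM on the excitatory side. This was a log2 fold change of -0.54 ± 0.20 that did not pass the threshold (adjusted p = 0.086). Without thinning, 28.2% (22.0 to 35.1%) and 22.0% (16.0 to 28.9%) of inhibitory cells and 40.5% (35.2 to 46.1%) and 40.5% (34.5 to 46.7%) of excitatory cells had an evx1 UMI. In fibroblast-like cells the share was 0% and 0.546%, below that of either side, and the part of free RNA was not tested. After thinning the shares were 18.3% and 13.7% against 22.9% and 25.2%.

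Over all transcription factor families, 41 of 207 tested members were higher and 43 lower on the inhibitory side, against 4.78% and 5.65% of all genes. Outside the lists, and named after their values were seen, nr2f2, which encodes the orphan receptor COUP-TFII, was at 202 and 276 CPM against 19.2 and 21.9 CPM, and neurod1, a proneural gene, at 67.0 and 93.9 CPM against 7.39 and 12.6 CPM. On the excitatory side bcl11ba, which encodes a zinc finger repressor, was at 69.4 and 149 CPM, against 8.04 and 9.67 CPM. Hox genes, which mark position along the body axis, were divided: 3 of 37 rose and 11 fell, with a median log2 fold change of -0.48. The 3 that rose were hoxb7a, hoxb8a and hoxb9a, and hoxb8a was at 790 and 1137 CPM against 400 and 628 CPM. Among those that fell were hoxd12a (-2.50 ± 0.44) and hoxc1a (-1.43 ± 0.18).

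Glutamate receptor genes changed in both directions. Of 20 tested, 5 rose and 6 fell, against 4.78% and 5.65% of all genes. gria2b, which encodes a subunit of AMPA receptors, was at 32.1 and 9.67 CPM on the inhibitory side and 160 and 219 CPM on the excitatory side (log2 fold change -3.17 ± 0.27, adjusted p = 2.59e-09). The related gria1a rose, at 22.8 and 31.8 CPM against 3.69 and 3.37 CPM. The NMDA receptor paralogues grin2ca and grin2cb moved in opposite directions: grin2cb was at 34.8 and 52.5 CPM against 0 and 3.37 CPM, and grin2ca at 13.4 and 1.38 CPM against 57.6 and 42.1 CPM. Reads of close paralogues can be split unevenly, which was not tested.

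Receptors for the inhibitory transmitters did not rise as a group. Of 15 GABA and glycine receptor genes tested, 4 fell and 1 rose, against 5.65% and 4.78% of all genes. The glycine receptor gene glra4a was at 9.38 and 20.7 CPM against 82.7 and 64.0 CPM (-2.32 ± 0.34), and gabra5, which encodes a subunit of GABA-A receptors, fell by 1.58 on the log2 scale. Of 7 acetylcholine receptor genes, chrnb4 fell by 2.06 on the log2 scale and the others were not called.

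Among ion channel genes, 5 of 35 potassium channel genes rose and 6 fell, and 2 of 31 sodium and calcium channel genes rose and 3 fell. The shares for sodium and calcium channels were near those over all genes (4.78% and 5.65%). kcnk9, which encodes a background potassium channel, had 0 and 1 UMIs on the inhibitory side and 103 and 52 on the excitatory side. cacna1g, the gene of a T-type calcium channel, was at 75.01 and 67.7 CPM on the inhibitory side and 7.39 and 6.74 CPM on the excitatory side (log2 fold change 3.30 ± 0.31, adjusted p = 1.61e-08). cacna2d3, a calcium channel auxiliary subunit gene, had 27 and 28 UMIs against 1 and 1.

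**Figure D3:**
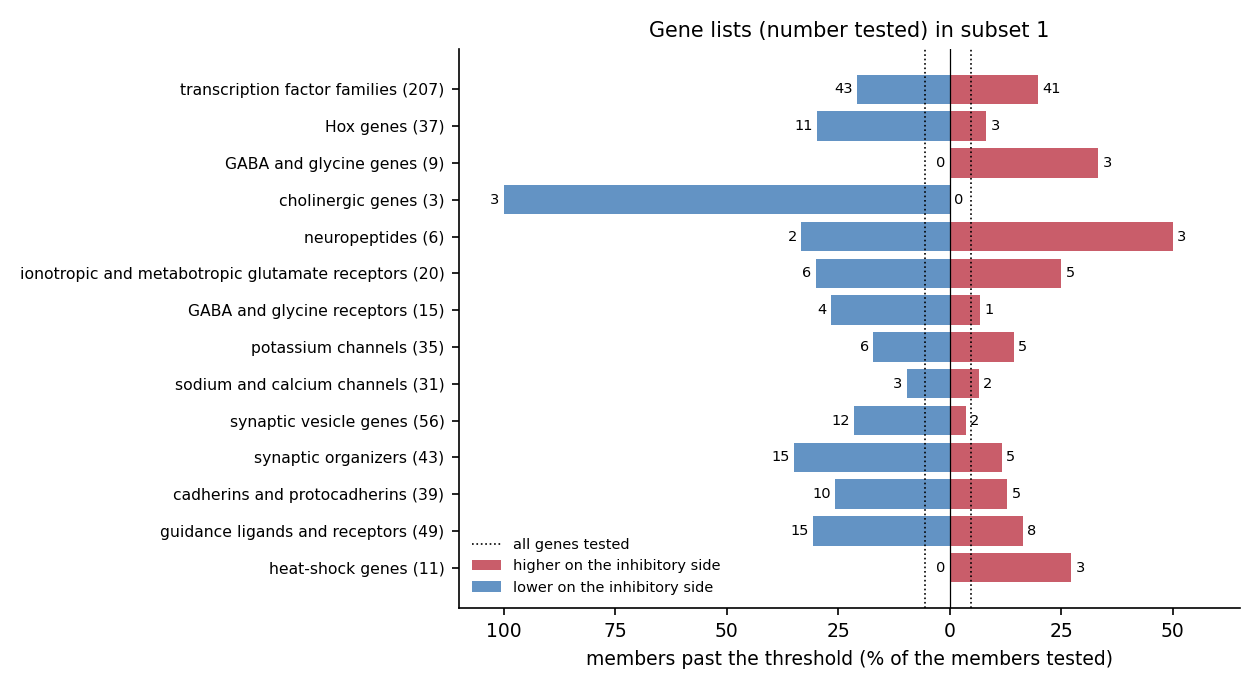
Share of the tested members of 14 gene lists that passed the threshold, higher on the inhibitory side to the right and lower to the left, with the number of genes at each bar and the shares over all genes tested (4.78% higher and 5.65% lower) as dotted lines. Of the synaptic organizers 15 of 43 and of the synaptic vesicle genes 12 of 56 were lower on the inhibitory side, against 5 and 2 that were higher, whereas transcription factor families were divided (41 higher and 43 lower).

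Genes of synaptic adhesion were lower on the inhibitory side more often than higher. Of 43 synaptic organizer genes tested, 15 fell and 5 rose, with a median log2 fold change of -0.26. Over all genes tested, 5.65% fell and 4.78% rose. cbln2b, which encodes a cerebellin that bridges synaptic partners, was at 5.36 and 2.76 CPM against 142 and 199 CPM (-5.37 ± 0.41, adjusted p = 3.99e-10), and the neuroligin gene nlgn1 at 14.7 and 6.91 CPM against 117 and 161 CPM (-3.68 ± 0.28, adjusted p = 3.81e-10). The presynaptic neurexin gene nrxn3a showed the reverse, at 161 and 309 CPM on the inhibitory side and 8.12 and 15.2 CPM on the excitatory side (adjusted p = 5.52e-13). Of 56 synaptic vesicle genes, 12 fell and 2 rose. syt9b, a synaptotagmin gene, had 1 UMI in each library on the inhibitory side and 78 and 66 on the excitatory side. The neuron markers elavl4 and snap25a also fell slightly, by 0.61 and 0.53 on the log2 scale; neither was called when the library was left out of the model.

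Cadherin and guidance genes followed the same division. Of 39 cadherins and protocadherins, 10 fell and 5 rose, against 5.65% and 4.78% of all genes. cdh18a had 1 and 2 UMIs against 39 and 43, and pcdh9 was at 213 and 296 CPM against 31.0 and 27.8 CPM (log2 fold change 3.06 ± 0.19, adjusted p = 4.75e-12). Of 49 guidance ligand and receptor genes, 15 fell and 8 rose. The class 3 semaphorin genes sema3b and sema3aa moved in opposite directions: sema3b had 54 and 80 UMIs on the inhibitory side and 2 and 0 on the excitatory side, and sema3aa was at 4.02 and 5.52 CPM against 56.1 and 57.3 CPM. efnb3b, which encodes an ephrin, rose by 2.57 on the log2 scale. The receptor gene robo3, named after its values were seen and known for its role in commissural axon crossing, was at 48.2 and 62.1 CPM against 101 and 145 CPM.

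Among the genes of largest change that belonged to no list, gfra1a, which encodes a receptor for glial cell line-derived neurotrophic factor, was at 157 and 189 CPM on the inhibitory side and 8.86 and 3.37 CPM on the excitatory side. tmeff2b was at 181 and 182 CPM against 8.12 and 6.74 CPM. BX571952.1 had 37 and 58 UMIs and si:dkey-15b23.3 had 41 and 60 UMIs on the inhibitory side, and both had none on the excitatory side. CU179656.1 (112 and 84 UMIs against 2 and 0) and LOC100330246 (47 and 72 UMIs against 2 and 1) behaved similarly. On the excitatory side brinp2 had 94 and 69 UMIs against 1 and 1, tagln3b 135 and 91 against 1 and 2, and si:dkey-215k6.1 209 and 275 against 1 and 0. No annotation used here gives a role for the genes named only by clone or locus.

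Some genes that moved with the side also mark other cells or stress, and their part in the results was not tested. hsp70l, a heat-shock gene with near-identical copies between which reads can be split, was at 10481 CPM on the inhibitory and 6363 CPM on the excitatory side of library 1, and at 146 and 42.1 CPM in library 2. Of 11 heat-shock genes 3 were higher on the inhibitory side and none was lower, against 4.78% and 5.65% of all genes. The 12 heat-shock genes in the files summed to 24429 against 16491 CPM in library 1 and 533 against 328 CPM in library 2. atf3, an immediate early gene, was at 595 and 421 CPM against 198 and 143 CPM (log2 fold change 1.55 ± 0.13), while the other 10 tested genes of its list were not called.

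Markers of V2b and KA neurons summed to 40.2 and 262 CPM on the inhibitory side and 17.0 and 18.5 CPM on the excitatory side. Of these, sst1.1 had 99 UMIs in 2 inhibitory cells of library 2 and none elsewhere, and tal1 had 12 and 33 UMIs against 3 and 0. Fibroblast markers summed to 30.8 and 70.4 CPM on the inhibitory side and 13.3 and 227 CPM on the excitatory side, and col1a1b, a collagen gene, was called lower on the inhibitory side. Without the cells that held any of 26 markers of other fates (9 and 29 inhibitory and 41 and 55 excitatory cells), an alternative chosen after seeing the data, 907 genes were called, 833 of them among the 962. gad1b, pnoca, otpa, skor2, ebf3a, chgb, chata and slc18a3a kept their calls there.

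The inhibitory side was not uniform. Cells were split by which of its genes they held: hmx2 or hmx3a without slc6a1b (56 and 56 cells), slc6a1b without hmx genes (28 and 29 cells) or both (111 and 88 cells). These values are a description, since the rule used the genes of the split. pnoca was at 3139 and 2651 CPM in cells with both, 2736 and 1230 CPM in cells with slc6a1b only and 490 and 387 CPM in cells with hmx genes only. gad1b was at 143 and 138 CPM, 134 and 169 CPM, and 24.0 and 14.0 CPM in the same groups, likewise lowest in cells with hmx genes only, while the order of the other groups differed between libraries. In contrast bhlhe22 was highest in cells with hmx genes only, at 173 and 787 CPM, against 40.8 and 102 CPM in cells with both. pax2a was likewise at 86.5 and 242 CPM in cells with hmx genes only and at 4.53 and 17.9 CPM in cells with both. otpa was high in all 3 groups, from 2629 to 6689 CPM.

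Within the inhibitory side, 62 and 76 cells had a UMI of slc6a5, the neuronal glycine transporter gene. bhlhe22 was at 140 and 670 CPM in these cells and at 43.1 and 32.5 CPM in the inhibitory cells without slc6a5. pnoca was lower with slc6a5 (1663 and 1134 CPM) than without it (2665 and 2243 CPM), and gad1b was at 97.3 and 89.6 CPM with slc6a5 and 114 and 120 CPM without it.

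On the excitatory side skor2 was high in every group. It was at 1245 and 1522 CPM in cells with evx2 and a slc17a6 gene, 1219 and 1814 CPM in cells with evx2 only and 1231 and 1068 CPM in cells with slc17a6 genes only. slc18a3a was at 64.3 and 63.3 CPM, 33.6 and 27.0 CPM, and 66.9 and 94.5 CPM in the same order. slc32a1 was at 552 and 500 CPM in cells with evx2 only and 224 and 212 CPM in cells with slc17a6 genes only. gad1b stayed at 0 in all 3 groups.

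Cells with genes of both sides held otpa and pnoca at levels near those of the inhibitory side. These 81 and 76 cells had a median of 4023 and 4384 UMIs, which lay above the medians of both sides in library 1 (3819 and 4011.5) and between them in library 2 (4224 and 4672.5). otpa was at 4682 and 4192 CPM in them, pnoca at 2210 and 2120 CPM and gad1b at 50.1 and 37.7 CPM. skor2 was at 242 and 240 CPM, above the inhibitory and below the excitatory side, and ebf3a at 85.5 and 104 CPM. slc18a3a had 1 and 0 UMIs. No doublet caller was run beside the upper limits on UMIs and genes, so the part of cell pairs or of free RNA in these values was not tested.

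**Figure D4:**
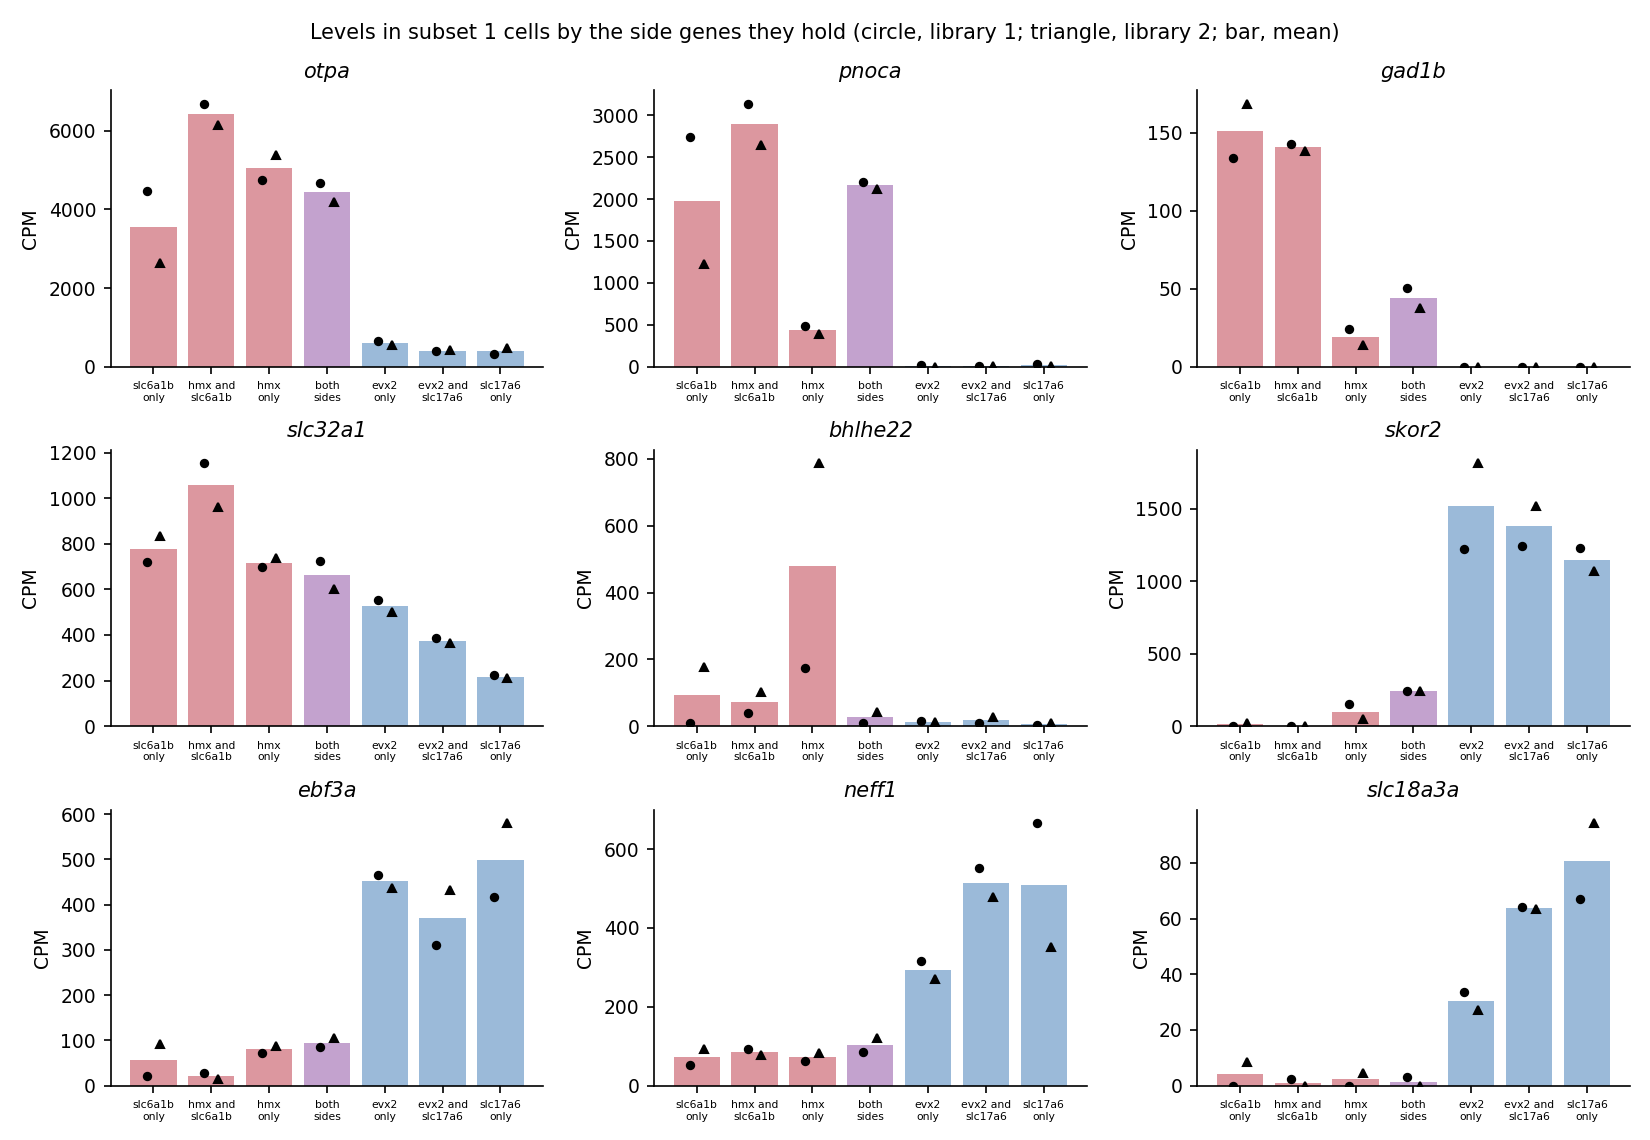
Level in CPM of 9 genes in subset 1 cells grouped by the side genes they held, with bars for the mean of both libraries, circles for library 1 and triangles for library 2. pnoca and gad1b were lowest among inhibitory groups in cells with hmx genes only, where bhlhe22 was highest (173 and 787 CPM), and cells with genes of both sides had 2210 and 2120 CPM of pnoca and 242 and 240 CPM of skor2.

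The change between the sides was compared with that in subset 2, recognised by a UMI of esrrb, scxa or svild and none of the subset 1 markers. Subset 1 cells were not screened for these 3 genes. In subset 1, scxa was at 21.4 and 53.9 CPM on the inhibitory and 77.6 and 79.1 CPM on the excitatory side. There esrrb was at 54.9 and 70.4 CPM against 44.3 and 66.5 CPM. The part of cells with subset 2 markers in the results was not tested. Subset 2 gave 235 inhibitory and 1651 excitatory cells by the same side rules. The inhibitory sides differed in make-up. A slc6a1b UMI was held by 139 of 195 and 117 of 173 inhibitory cells in subset 1, against 7 of 120 and 22 of 115 in subset 2. The subset and the share of slc6a1b cells thus changed together, and their separate parts in the differences were not tested. The change differed for 949 of 9218 genes (10.3%; the same edgeR fit, test of the difference), more positive in subset 1 for 528 (5.73%) and more negative for 421 (4.57%). Positive differences mean a larger rise, or a smaller fall, on the inhibitory side of subset 1 than of subset 2. With slc6a5 at 0 on both sides the count was 416, and with slc6a1b alone as the inhibitory gene, which leaves 7 and 22 inhibitory cells in subset 2, it was 358. Under the latter gate 244 of the 938 differences that were still tested kept their call, and 95 had the opposite sign.

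**Figure D5:**
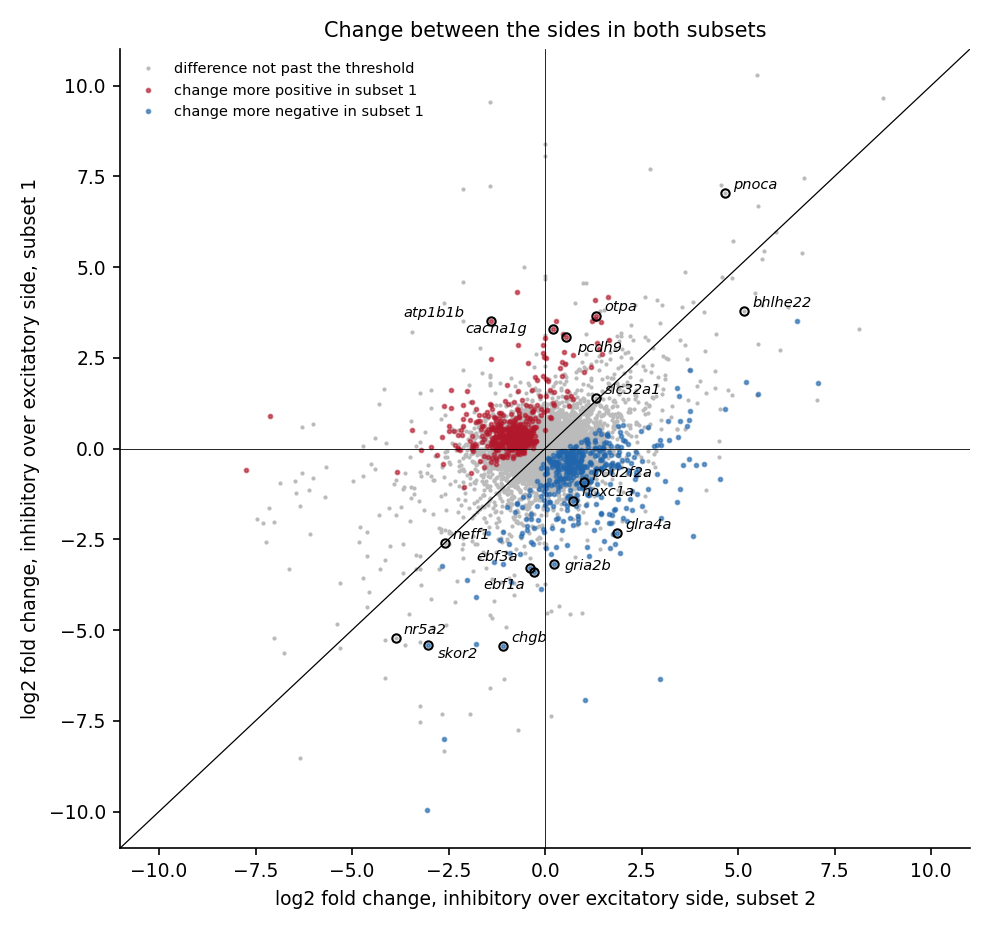
Log2 fold change of the inhibitory over the excitatory side in subset 1 (vertical) against that in subset 2 (horizontal) for all 9218 genes, with genes whose change was more positive in subset 1 in red, more negative in blue and the others in grey. otpa rose by 3.66 in subset 1 and 1.33 in subset 2, and ebf1a fell by 3.41 in subset 1 and 0.30 in subset 2, whereas slc32a1 (1.39 and 1.33) lies near the diagonal. neff1 (-2.60 in both) does so only as an average of libraries with opposite differences (-1.37 and 2.81).

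The change of otpa, cacna1g, pcdh9 and atp1b1b was more positive in subset 1. The differences of the paralogue otpb (0.49 ± 0.31, edgeR adjusted p = 0.36) and cacna2d3 (edgeR adjusted p = 0.65) were not called. otpa was at 4422 and 4390 CPM on the inhibitory and 1709 and 1766 CPM on the excitatory side of subset 2, so that its log2 fold change was 1.33 ± 0.08 there and the difference 2.33 ± 0.12 (adjusted p = 9.92e-13). In subset 1 the inhibitory levels of otpa were higher (5859 and 5345 CPM) and the excitatory levels lower (411 and 459 CPM) than in subset 2. The levels of the subsets were not tested against each other. cacna1g was at 15.3 and 9.09 CPM against 10.8 and 9.97 CPM in subset 2 (difference 3.10 ± 0.53, adjusted p = 3.05e-04), and pcdh9 at 74.2 and 143 CPM against 63.5 and 83.5 CPM (difference 2.51 ± 0.27, adjusted p = 6.60e-07). atp1b1b, which encodes a subunit of the sodium pump, rose in subset 1 (117 and 131 CPM against 11.8 and 9.26 CPM) and was at 7.67 and 9.09 CPM against 23.3 and 20.9 CPM in subset 2 (difference 4.91 ± 0.48, adjusted p = 1.54e-07). In subset 2 atp1b1b was called lower on the inhibitory side (log2 fold change -1.39 ± 0.46, edgeR adjusted p = 0.041). The changes of cacna1g (0.20 ± 0.47) and pcdh9 (0.55 ± 0.20) were not called there.

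The Ebf genes ebf3a and ebf1a fell in subset 1. In subset 2 both were lower on the inhibitory side within both libraries, but neither change was called (log2 fold change -0.39 ± 0.17 and -0.30 ± 0.24). ebf3a was at 187 and 136 CPM on the inhibitory side of subset 2 and 201 and 214 CPM on the excitatory side (difference -2.90 ± 0.27, adjusted p = 7.47e-08). ebf1a was at 48.6 and 52.3 CPM against 57.6 and 65.1 CPM (difference -3.12 ± 0.35, adjusted p = 1.00e-06). gria2b, at 23.0 and 29.5 CPM against 21.8 and 22.9 CPM in subset 2, differed by -3.39 ± 0.57 (adjusted p = 2.43e-04), chgb by -4.33 ± 0.88 (adjusted p = 0.0018) and glra4a by -4.19 ± 0.69 (adjusted p = 1.94e-04). For hoxc1a, scrt2 and pou2f2a the directions were opposite: they fell in subset 1 and rose in subset 2, with differences of -2.17 ± 0.27, -1.89 ± 0.26 and -1.91 ± 0.32. glra4a likewise fell in subset 1 and rose in subset 2 (log2 fold change 1.86 ± 0.54 there, edgeR adjusted p = 0.019). The differences of gria2b, chgb and glra4a were not called with slc6a1b alone as the inhibitory gene.

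Other changes did not differ detectably between the subsets. slc32a1 rose by 1.39 in subset 1 and 1.33 in subset 2 (difference 0.06 ± 0.16, adjusted p = 0.87). The fitted fall of neff1 was 2.60 in both subsets (adjusted p of the difference 0.999), but it averaged over libraries that went opposite ways, with differences of -1.37 in library 1 and 2.81 in library 2. The difference was -1.35 ± 0.64 for nr5a2 (adjusted p = 0.20), 2.38 ± 1.30 for pnoca (adjusted p = 0.27) and -1.37 ± 0.50 for bhlhe22 (adjusted p = 0.081). neff1 had only 13 and 1 UMIs on the inhibitory side of subset 2. pnoca was rare in subset 2, with 9 and 1 UMIs on the inhibitory side, at 23.0 and 2.27 CPM. gad1b had 0 and 8 UMIs on the inhibitory side of subset 2, and its difference was not called (adjusted p = 0.39).

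For skor2 the difference of -2.38 ± 0.76 passed the threshold narrowly (adjusted p = 0.048) and rested on library 2. In subset 2, skor2 was at 155 and 120 CPM on the excitatory side and at 0 and 31.8 CPM, that is 0 and 14 UMIs, on the inhibitory side. Within library 1 alone, with 1 CPM added, the difference was 2.55, and within library 2 it was -4.36. The call for skor2 was lost under 8 of the alternatives.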

How the data were processed

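The deposited data are UMI counts per gene and cell, which the authors made from their reads with Cell Ranger 4.0.0 and the Lawson Lab annotation V4.3.2; the genome build is not given in the sources used here. The files list 4373 and 6223 cells with 18908819 and 34071583 UMIs for 36351 genes. Cells with 500 to 2500 genes, at most 12000 UMIs and at most 6% mitochondrial UMIs were kept (3571 and 4556). Doublets were limited by the FACS gates and these upper limits, which the study used against multiplets, and no caller was run; 3 barcodes occurred in both libraries, none of them in a member. Counts were summed per library, subset and side, and the 8 sums were tested with edgeR 4.0.16 (R 4.3.3; quasi-likelihood, TMM, filterByExpr, subset and side as groups, library as a term). The sums of 1 library share its number because they come from the same droplets, so the library was the replicate block. Each SE is the absolute log2 fold change over the root of its F value. The 19 genes of the rule were left out of the tests but not of the library sizes. Binomial intervals are exact (Clopper-Pearson) and, like the limit set by 3 cells, cover counting error only. The test was tested on simulated counts.

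Named genes were the 12 with the largest rise and fall among called genes (same sign in both libraries, at least 20 UMIs in each library of the higher side), the tested members of 5 factor and transmitter lists, up to 4 called members of each other list, and the 5 largest differences between the subsets in each direction. Members and lists were chosen with earlier results of these data known. Some genes are not reported here. Alternatives were DESeq2 1.42.0 size factors and Wald test, no filter on low counts, only the sums of subset 1, no library term, stricter or other gates, other cell limits, cells thinned to 2000 UMIs, and leaving out each library, with the removal of cells holding markers of other fates or cholinergic genes added after seeing the data. Python 3.11.15, NumPy 2.4.6, pandas 2.3.3 and SciPy 1.17.1 were used.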

Additional observations from a re-analysis of the deposited data

Results flagged for a closer look

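For 46 of the named genes the change between the sides differed between subset 1 and subset 2 in the edgeR test of the difference. The values are log2 differences, subset 1 minus subset 2, and positive where the inhibitory side of subset 1 gained more.

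Among transcription factor genes, the change was more negative in subset 1 for ebf1a (-3.12), ebf3a (-2.90), uncx4.1 (-2.44), skor2 (-2.38), hoxc1a (-2.17), pou2f2a (-1.91), scrt2 (-1.89), pax2a (-1.58), pou3f2b (-1.20), pbx1b (-1.20), scrt1a (-1.19), hoxa3a (-1.17), pou2f2b (-1.12), zfhx3b (-1.02), nr2f5 (-1.02) and uncx (-0.85). It was more positive for otpa (2.33), atf3 (1.32) and lhx1a (0.54). The sides of subset 1 and of subset 2 moved in opposite directions, both past the test, for these factor genes: hoxc1a, scrt2, uncx4.1 and pou2f2a. For pax2a both subsets rose, by 2.17 in subset 1 and 3.74 in subset 2.

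Among genes of synapses, transmission and excitability, the difference was negative for chgb (-4.33), glra4a (-4.19), scg2a (-4.003), lrrc4.2 (-3.75), cbln2b (-3.58), gria2b (-3.39), nlgn1 (-2.81), scn4ba (-2.76), slc6a9 (-2.43), ache (-1.03), slc1a2b (-0.71), inab (-0.70) and snap25a (-0.43). It was positive for gphnb (0.95), efnb3b (1.86), pcdh9 (2.51), cacna1g (3.10), rundc3aa (4.06), atp1b1b (4.91) and cntn3b (5.02). cntn3b, which encodes a contactin, had 39 and 33 UMIs on the inhibitory and 2 and 4 on the excitatory side of subset 1, and 1 and 1 against 15 and 15 in subset 2. scn4ba, a sodium channel beta subunit gene, had 7 and 11 UMIs against 85 and 118 in subset 1 and 7 and 30 against 123 and 198 in subset 2. scg2a had only 2 and 6 UMIs against 0 and 1 in subset 2.

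Several differences rested on sums without a UMI, and their fitted size is then no measure of the fold. kcns3a (-9.34) had 0 and 0 UMIs on the inhibitory and 3 and 14 on the excitatory side of subset 1, and olig4 (-7.96) 0 and 0 against 9 and 17. prcp (8.02) and gjd2b (7.16), which encodes a gap junction protein, had no UMI on the inhibitory side of subset 2 and 32 and 50, and 40 and 84, on its excitatory side. si:dkey-215k6.1 differed by -5.37 and zgc:194659 by -5.37, the latter with at most 16 UMIs in any sum. col1a1b, a fibroblast marker, differed by -4.45; it had 71 UMIs on the excitatory side of library 2 and 1 to 6 in the other sums of subset 1, where the fibroblast markers together stood at 227 CPM against 13.3 to 70.4 CPM.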

How the results depend on the processing

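The 962 genes called in subset 1 became 503 (236 higher, 267 lower) with the DESeq2 Wald test, 465 (213, 252) without the replicate block and 619 (265, 354) after thinning; the other alternatives gave 869 to 1215. The 949 differences between the subsets became 473 (255 positive, 218 negative) with the Wald test, 202 (101, 101) without the block, 624 (325, 299) after thinning, 416 (235, 181) with slc6a5 at 0 on both sides and 358 (233, 125) with slc6a1b alone as inhibitory gene. Without a filter 1116 differences were called, 797 of them positive (71.4% against 55.6%). Of the 110 named genes called in subset 1, 73 kept their call under every alternative with a value; 24 lost it without the block and 19 with the Wald test. Thinning lowered the share of subset 1 cells with genes of both sides to 7.92% and 7.93% and the excitatory share of library 1 to 38.8%.

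Direction turned for some genes. In subset 1, gphna was at 0.10, 0.058, 0.42 and 0.020 (2 marker UMIs, 2 side UMIs, thinning, hmx genes alone), nefmb at -0.13 (no upper limits) and -0.52 (slc6a5 at 0), pax2a at -0.33 and pax2b at -0.0089 (slc6a5 at 0), pax2b at -0.50 (slc6a1b alone), col1a1b at 0.016 (no upper limits) and gjd2b at 0.43 and 0.82 (2 marker UMIs, no cells of other fates). Differences turned with slc6a1b alone for ache (0.80), inab (0.27), snap25a (0.52) and uncx (0.21), with slc6a5 at 0 for zgc:194659 (2.89), and without replicate 2 for skor2 (2.55, against -4.36 without replicate 1). The cause was not tested. With 1 library left out no residual spread remains, so that only values could be given. With 2 libraries, pooled genotypes and 173 to 328 cells per side and library, genes of few UMIs were measured imprecisely.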

Other observations

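Few dopamine receptor genes passed the filter on low counts, and those tested showed no common direction. drd3, which encodes a D2-like receptor, fell by 4.53 on the log2 scale on the inhibitory side, and drd5a, which encodes a D1-like receptor, rose by 2.61 (edgeR adjusted p under the threshold for both). drd5a had 14 and 21 UMIs on the inhibitory and 10 and 0 on the excitatory side, with a log2 change of 1.24 in library 1 and 4.91 in library 2. drd2a was at 1.86 and was not called. drd2b could not be tested because it marked the subset.

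Some excitatory cells of library 2 carried transcripts of other neurons. pou4f1, a POU factor gene of dorsal neurons, had 65 UMIs in 11 of these cells and 3 in library 1, and cckb, a cholecystokinin gene, had 122 UMIs, 103 of them in 1 cell.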
